A study of Mus musculus with 6 samples.

Results

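Many cytochrome P450 genes of mouse liver lie in clusters of related genes. DNA methylation signals were compared over 5 such clusters, the Cyp2c, Cyp3a, Cyp4a, Cyp2d and joint Cyp2a/Cyp2b loci. Members were the array probes, other than controls, whose start on the mouse build mm9 fell inside a fixed interval for each locus. That rule uses positions only, but the loci themselves were chosen with earlier results of these data known. From the first to the last such probe the loci spanned chr19:39080216-40263039 for Cyp2c, chr5:146230093-146822326 for Cyp3a, chr4:114913390-115321526 for Cyp4a, chr15:82210204-82283293 for Cyp2d and chr7:26681383-27725485 for Cyp2a/Cyp2b. The intervals held 349 of the 174638 probes of the array. Probes whose neighbour started at most 1000 bp away were joined into regions, and regions of at least 3 probes were analysed, 50 of the 21987 on the array. The Cyp2c locus held 99 probes in 15 regions, Cyp3a 46 in 6, Cyp4a 78 in 11, Cyp2d 34 in 4 and Cyp2a/Cyp2b 92, of which 91 lay in 14 regions and 1 stood alone. The names of the loci rest on these positions. The files pair no probe with a gene, and the gene table used here is of another build, so no region is assigned to a single gene and no exon, intron or promoter is given for it.

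The samples were liver DNA of mouse offspring at 32 weeks of age, 3 from dams on a chromium-restricted diet and 3 from dams on a control diet. Strain, sex and litter are not given in the labels, and they do not say when the dams' diet began or ended or what the offspring ate. The title and tissue labels give liver while the extraction protocol names fat, and no marker of either tissue could be looked up by gene. Each DNA was compared with itself on a 2-colour Agilent array: DNA precipitated with the methylated-DNA immunoprecipitation (MeDIP) method carried the red dye Cy5 and unselected input DNA the green dye Cy3, with no dye swap. The level given throughout is the log2 ratio of immunoprecipitated over input signal, set so that the median probe of each array is 0. It rises with the number of methylated CpG sites on a fragment and is not a percentage of methylation. Because nothing says the 3 samples of a group came from separate litters, the p-values speak of the spread among these 6 samples only, which may be technical.

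P450 enzymes are haem proteins of the endoplasmic reticulum that oxidise drugs, steroids and fatty acids, and the liver is their main site. Cyp3a and Cyp2b genes are textbook targets of the nuclear receptors PXR and CAR, which sense foreign compounds, and Cyp4a genes, which encode fatty acid hydroxylases, are targets of the fasting and lipid sensor PPARalpha. Cyp2c enzymes metabolise drugs and oxidise arachidonic acid, Cyp2d enzymes metabolise many basic drugs, and Cyp2a5 hydroxylates coumarin. Each cluster grew by tandem duplication, so neighbouring genes share much of their sequence.

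Promoters of these genes hold few CpG sites, the substrate of the methylation read here, and the sequences of 7 of them are printed to show how few. They are RefSeq windows of 300 bases, 250 before to 50 after the annotated start, on GRCm38.p6, 5' to 3' on the gene's strand, with every CpG in capitals. Cyp3a41a (chr5:145720087-145720386, minus strand) and Cyp3a41b (chr5:145584681-145584980, minus strand) are near copies expressed mainly in females, and they show how alike tandem genes can be. Cyp3a11 (chr5:145879805-145880104, minus strand) encodes the major inducible Cyp3a enzyme of mouse liver. Cyp2c29 (chr19:39286835-39287134, plus strand), Cyp4a32 (chr4:115600688-115600987, plus strand), Cyp2d10 (chr15:82407145-82407444, minus strand) and Cyp2b10 (chr7:25897408-25897707, plus strand), the last a classic CAR target, stand for the other loci.
Cyp3a41a: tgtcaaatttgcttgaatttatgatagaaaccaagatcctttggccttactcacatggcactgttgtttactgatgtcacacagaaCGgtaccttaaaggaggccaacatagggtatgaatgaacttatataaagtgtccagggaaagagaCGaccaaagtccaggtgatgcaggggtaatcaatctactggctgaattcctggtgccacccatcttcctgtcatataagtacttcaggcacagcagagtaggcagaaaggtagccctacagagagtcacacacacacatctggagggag
Cyp3a41b: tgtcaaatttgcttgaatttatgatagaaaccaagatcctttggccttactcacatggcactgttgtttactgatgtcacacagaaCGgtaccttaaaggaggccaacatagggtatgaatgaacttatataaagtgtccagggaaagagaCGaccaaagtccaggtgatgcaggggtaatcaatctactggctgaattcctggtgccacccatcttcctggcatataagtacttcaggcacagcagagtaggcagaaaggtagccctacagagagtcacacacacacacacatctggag
Cyp3a11: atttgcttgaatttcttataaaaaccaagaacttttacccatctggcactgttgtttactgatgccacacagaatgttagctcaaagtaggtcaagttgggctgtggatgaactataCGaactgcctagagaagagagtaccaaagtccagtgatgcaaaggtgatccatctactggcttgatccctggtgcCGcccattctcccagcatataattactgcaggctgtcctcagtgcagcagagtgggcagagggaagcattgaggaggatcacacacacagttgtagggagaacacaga
Cyp2c29: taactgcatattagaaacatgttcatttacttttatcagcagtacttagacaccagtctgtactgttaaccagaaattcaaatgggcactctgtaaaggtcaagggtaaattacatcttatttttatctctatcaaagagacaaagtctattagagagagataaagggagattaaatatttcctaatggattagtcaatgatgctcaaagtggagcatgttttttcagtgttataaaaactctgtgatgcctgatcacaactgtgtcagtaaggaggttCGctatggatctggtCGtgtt
Cyp4a32: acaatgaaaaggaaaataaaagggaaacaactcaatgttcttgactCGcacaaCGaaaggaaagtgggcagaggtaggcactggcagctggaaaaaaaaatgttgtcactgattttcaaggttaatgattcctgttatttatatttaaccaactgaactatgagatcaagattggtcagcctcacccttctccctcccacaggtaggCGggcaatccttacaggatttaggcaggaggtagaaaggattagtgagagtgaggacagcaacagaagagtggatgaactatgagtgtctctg
Cyp2d10: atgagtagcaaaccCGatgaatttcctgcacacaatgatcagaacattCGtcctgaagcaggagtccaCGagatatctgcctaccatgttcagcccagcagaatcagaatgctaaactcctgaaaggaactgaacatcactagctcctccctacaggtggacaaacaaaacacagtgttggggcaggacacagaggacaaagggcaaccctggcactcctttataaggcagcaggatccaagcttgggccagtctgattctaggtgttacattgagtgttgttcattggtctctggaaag
Cyp2b10: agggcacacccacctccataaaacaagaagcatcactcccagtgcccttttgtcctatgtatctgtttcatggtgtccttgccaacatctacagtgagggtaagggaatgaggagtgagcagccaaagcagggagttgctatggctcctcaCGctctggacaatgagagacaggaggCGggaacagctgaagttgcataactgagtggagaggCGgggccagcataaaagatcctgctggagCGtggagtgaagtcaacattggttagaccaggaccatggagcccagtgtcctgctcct

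The Cyp3a41a and Cyp3a41b windows differed by 8 single-base edits and were 97.3% identical. Among Cyp3a windows 9 of 35 pairs were over 90% identical, against 2 of 36 for Cyp2a/Cyp2b, 1 of 90 for Cyp2c, 0 of 10 for Cyp2d and 0 of 3 for Cyp4a. The 2 Cyp2a/Cyp2b pairs were Cyp2b13 with Cyp2b9 at 99.3% and Cyp2a4 with Cyp2a5 at 97.7%. The table matched 8 of 8 Cyp3a genes, 13 of 14 Cyp2c, 9 of 9 Cyp2a/Cyp2b, 5 of 8 Cyp2d and 3 of 8 Cyp4a, and the Cyp3a and Cyp2c matches gave 9 and 14 windows because a gene can have more than 1 start. The median number of CpGs in a window was 1 for Cyp3a (range 0 to 2), 1.5 for Cyp2c (0 to 4), 1 for Cyp2d (1 to 3), 2 for Cyp2a/Cyp2b (1 to 4) and 3 for each of the 3 Cyp4a windows. Over all 32851 windows of the table the median was 7 and the highest 67. Windows with at most 3 CpGs made up 100% of the Cyp3a, Cyp4a and Cyp2d windows, 92.9% of Cyp2c and 88.9% of Cyp2a/Cyp2b, against 31.4% of all windows. The median GC content was lowest for Cyp2c at 35.7%, and was 42% for Cyp4a, 46.3% for Cyp3a, 49% for Cyp2d and 50.7% for Cyp2a/Cyp2b, against 52.7% over all windows. These windows lie on another build than the probes, so which window a region covers was not analysed here.

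On each array both channels rose well above background at 70.2% to 76.3% of all probes, and region levels correlated at 0.909 to 0.985 between arrays. The median input signal differed more between arrays than the immunoprecipitated one, at 38.1 to 98.4 against 98.5 to 143 scanner units after background subtraction. The number of arrays, 3 per group, limits the precision of every difference. Every chromium-restricted sample lay at slide position 2 and every control sample at position 4, so position and diet cannot be told apart.

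With all probes counted, levels were below the array's median region at 4 of the 5 loci, lowest at Cyp3a, and near it at Cyp2d. The mean over the regions of a locus was -1.15 for Cyp3a (SD 0.27 over the 6 arrays), -0.55 for Cyp2c (SD 0.14), -0.47 for Cyp2a/Cyp2b (SD 0.16), -0.43 for Cyp4a (SD 0.11) and -0.14 for Cyp2d (SD 0.046). The median of all 21987 regions was -0.11, with quartiles at -0.45 and 0.20. In all, 30 of the 50 regions lay below that lower quartile, which 25.0% of all regions do by definition: 5 of 6 at Cyp3a, 11 of 14 at Cyp2a/Cyp2b, 9 of 15 at Cyp2c, 5 of 11 at Cyp4a and 0 of 4 at Cyp2d. Some of these rest on probes whose immunoprecipitated signal was at background. With such probes at the upper bound described for Cyp3a, 27 of 50 lay below the quartile, and 8 of 14 at Cyp2a/Cyp2b. The quartile was kept as measured for these counts, so the 25.0% does not apply to them. Of 8 regions among the lowest 5% of the array, 4 were the Cyp3a ones, 2 lay at Cyp2c, 1 at Cyp4a and 1 at Cyp2a/Cyp2b. Only 3 regions lay above the upper quartile, 1 at Cyp3a and 2 at Cyp2a/Cyp2b. A plot of all 50 regions by locus shows both groups side by side.

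**Figure D1:**
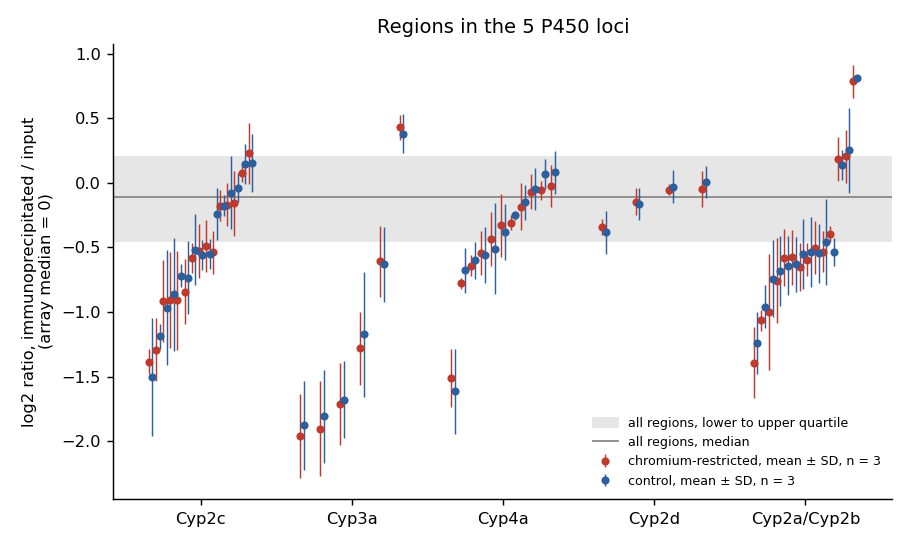
Level of each of the 50 regions by locus: the y axis is the log2 ratio of immunoprecipitated over input signal with the array median at 0, points are group means and bars the SD over 3 arrays, in red for chromium-restricted and blue for control. The grey band spans the quartiles of all regions, -0.45 to 0.20; 5 of 6 Cyp3a regions lie below it and all 4 Cyp2d regions lie inside it.

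The order of the loci was steady over arrays. The Cyp3a mean was -1.23, -1.41 and -0.87 in chromium-restricted samples 1, 2 and 3, and -1.46, -0.83 and -1.10 in control samples 1, 2 and 3 (values by array are in this order throughout). It was the lowest locus on 6 of 6 arrays, by 0.60 below Cyp2c on average (SD 0.14, range 0.40 to 0.75). The Cyp2d mean was -0.12, -0.15 and -0.17 on the chromium-restricted arrays and -0.21, -0.076 and -0.14 on the control arrays, and it was the highest locus on 6 of 6. Cyp2c lay below Cyp4a and below Cyp2a/Cyp2b on 6 of 6 arrays, by 0.12 (SD 0.052) and 0.077 (SD 0.042). Cyp4a and Cyp2a/Cyp2b were neighbours without a steady order: Cyp4a was higher on 4 of 6 arrays, by 0.038 on average (SD 0.058).

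Part of this order depended on how the dim probes were handled. Input was not well above background on all 6 arrays for 68 of 99 Cyp2c probes (68.7%), 31 of 78 Cyp4a probes, 33 of 92 Cyp2a/Cyp2b probes, 7 of 46 Cyp3a probes and 3 of 34 Cyp2d probes, against 26.4% of all probes. Most Cyp2c ratios thus rest on an input near background. Mean input brightness relative to the array median was -1.64 log2 units at Cyp2c, -0.57 at Cyp4a, -0.44 at Cyp2a/Cyp2b, 0.33 at Cyp3a and 1.16 at Cyp2d. Probes were also longest at Cyp2c, 56.3 bases on average with 54.5% at the longest design length of 60 bases, and shortest at Cyp2d, 47.3 bases with 0% at 60, against 49.2 bases and 13.2% over all probes. When only probes with input well above background on all 6 arrays were kept, a choice made after the data were seen, Cyp3a was again lowest on 6 of 6 arrays, at -1.15 (5 regions). The other means were then 0.012 for Cyp2c (3 regions), 0.017 for Cyp2a/Cyp2b (11), -0.18 for Cyp4a (9) and -0.041 for Cyp2d (4), and Cyp2d was the highest locus on 0 of 6. The median of all regions was then -0.0065, so outside Cyp3a and Cyp4a the loci lay close to it. With only probes bright in both channels, a filter that also selects on immunoprecipitated signal, Cyp4a was at 0.55 and Cyp2a/Cyp2b at 0.31, above a median of all regions of 0.17, while Cyp3a was at -0.37. In the authors' normalized table Cyp2c was the lowest locus (-0.88, against -0.74 for Cyp3a) and Cyp3a was lowest on 2 of 6 arrays. With normexp background correction Cyp3a was lowest on 4 of 6. The order of Cyp3a below Cyp4a, Cyp2d and Cyp2a/Cyp2b held under these settings, and the place of Cyp2c did not.

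**Figure D2:**
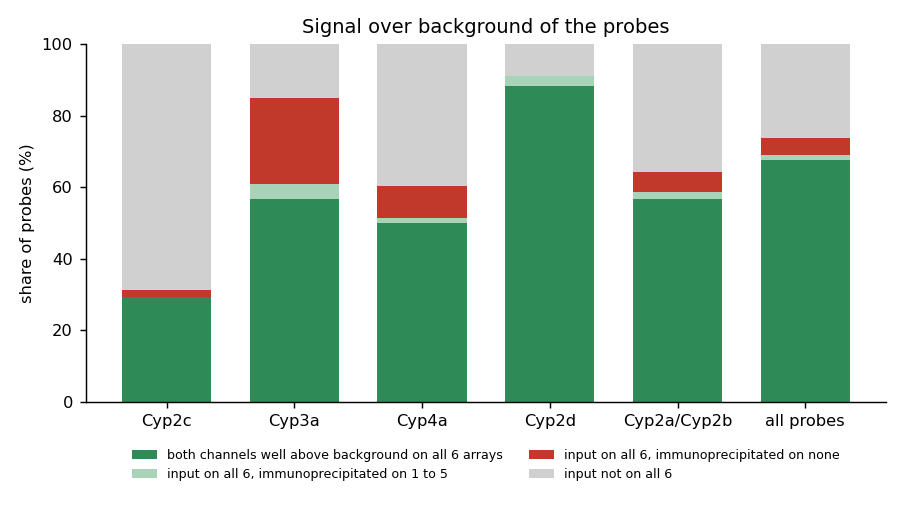
Share of probes (y axis, percent) in each locus and over the whole array by signal over background, stacked to 100. Dark green marks both channels well above background on all 6 arrays (29.3% at Cyp2c, 88.2% at Cyp2d, 67.5% of all probes), pale green input on all 6 with immunoprecipitated signal on 1 to 5, red input on all 6 with immunoprecipitated signal on none (23.9% at Cyp3a, 4.73% of all probes), and grey input not on all 6.

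At Cyp3a a dim immunoprecipitated signal often stood beside a bright input. Its mean immunoprecipitated signal relative to the array median, -0.999 log2 units, was not the dimmest of the loci. That mean was -2.32 at Cyp2c, -1.15 at Cyp4a, -1.10 at Cyp2a/Cyp2b and 0.86 at Cyp2d. At 11 of its 46 probes (23.9%) input was well above background on all 6 arrays and immunoprecipitated signal on none, against 7 of 78 at Cyp4a, 5 of 92 at Cyp2a/Cyp2b, 2 of 99 at Cyp2c, 0 of 34 at Cyp2d and 4.73% of all probes. Such a probe has only an upper bound. Here its immunoprecipitated signal was set on each array to the lowest signal of any probe well above background, or to its own where higher. A higher floor would give higher bounds, so every bound given here holds for this choice only. By that bound the ratios of the 11 Cyp3a probes were at most -3.23 to -1.53. A ratio whose input was dim has no such bound. A further run kept only probes of bright input, with every immunoprecipitated signal not well above background at its bound. The Cyp3a mean over 5 regions was then at most -0.87. The others were at most 0.012 for Cyp2c, 0.12 for Cyp2a/Cyp2b, -0.036 for Cyp4a and -0.039 for Cyp2d. The Cyp3a bound was the lowest of the 5 on 6 of 6 arrays, but upper bounds alone do not set the order of the levels.

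The 6 Cyp3a regions were not alike. In chromosomal order their levels were -1.70 at chr5:146230093-146231583, -1.92 at chr5:146345100-146346780, -1.85 at chr5:146531213-146532893, -0.62 at chr5:146616951-146618583, 0.41 at chr5:146690931-146692621 and -1.23 at chr5:146820694-146822326. The region at 146345100, the lowest of all 50, read -2.02, -2.25 and -1.61 on the chromium-restricted arrays and -2.25, -1.58 and -1.80 on the control arrays. The region at 146690931, the highest of the locus, read 0.41, 0.34 and 0.54 on the chromium-restricted arrays and 0.23, 0.53 and 0.39 on the control arrays. The diet groups overlapped in both, and on every array the second region lay above the first by far more than either varied.

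The first 3 Cyp3a regions were lowest at probes in their interior. All 23 probes of these regions had input well above background on 6 of 6 arrays. In the region at 146345100 the 3 probes that started 689, 892 and 1101 bp into it had no immunoprecipitated signal well above background on any array, with ratios of at most -3.23, -1.62 and -2.06. Probes on both sides were measured in both channels: the one starting at 146345590 averaged -0.011 and the one at 146346405 averaged -0.56. The probe at 146345590 was the highest of the region's 8. The median over the 8 probes was -1.70, so low ratios were not confined to the 3 interior probes. In the region at 146531213 probes at the same 3 offsets had ratios of at most -3.12, -1.62 and -2.01. In the region at 146230093 the 3 probes without immunoprecipitated signal lay 247, 896 and 1101 bp in, at most -2.40, -1.72 and -1.57, while its last probe averaged 1.07. With these probes at their bounds the 3 regions stood at -1.27, -1.44 and -1.40.

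**Figure D3:**
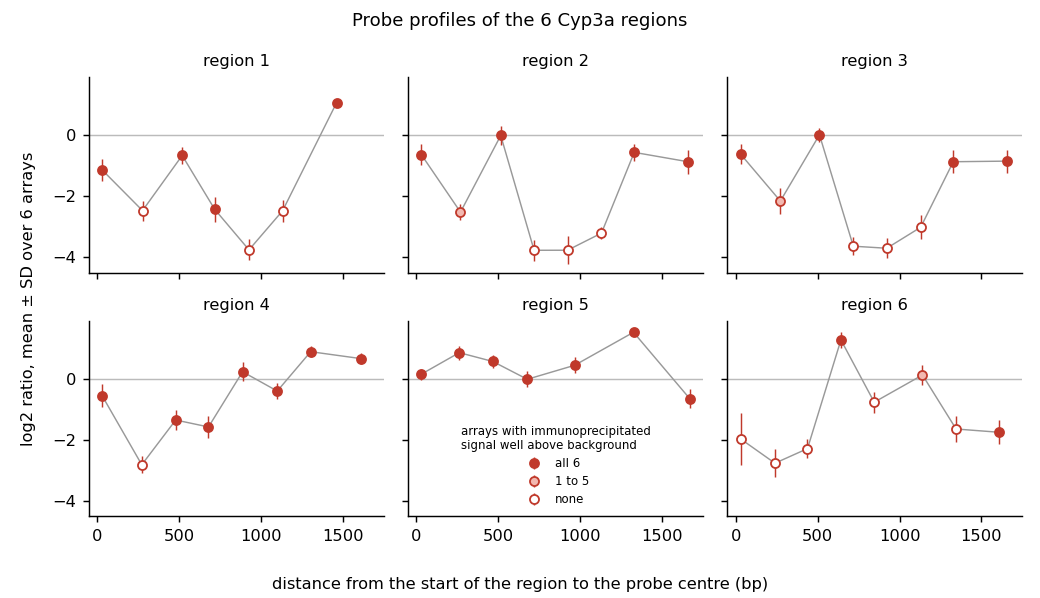
Probe profiles of the 6 Cyp3a regions in chromosomal order: distance from the region's start to the probe centre (x axis, bp) against the log2 ratio (y axis), mean and SD over 6 arrays. Open circles mark probes whose immunoprecipitated signal was well above background on no array and whose ratio is therefore only a bound or, where input is dim too, not measured; regions 2 and 3 share a trough, and region 5 has none.

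The regions at 146345100 and 146531213 had almost the same probe design and almost the same profile. Of their 8 probes each, 5 had the same length and the same distance from the region's start. Paired in order, the 8 mean ratios correlated at 0.994 across probes, differed by at most 0.36, and their inputs differed by at most 0.40 log2 units; probes of one region share arrays and are not replicates. One other pair of regions shared such a design: chr7:27091028-27092557 and chr7:27619172-27620703 at the Cyp2a/Cyp2b locus matched at 4 of 8 probes, whose ratios differed by -0.056 to 0.14, and their levels were -0.60 and -0.52. The files used here hold no probe sequences, so whether a probe reads 1 gene copy or several was not tested.

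At Cyp2c the levels ran from -1.44 at chr19:40162940-40164618 to 0.19 at chr19:40261620-40263039, the last region of the locus. The lower of these read -1.32, -1.50 and -1.34 on the chromium-restricted and -2.02, -1.17 and -1.31 on the control arrays, and 1 of its 6 probes was bright, meaning well above background on every array in input and immunoprecipitated channel alike. The higher one read 0.31, -0.037 and 0.41 on the chromium-restricted and -0.10, 0.23 and 0.32 on the control arrays, with 4 of 6 probes bright in both channels. The groups overlapped in both. With 1 probe at its bound the lower region stood at -1.07, while chr19:39815151-39816268 read -1.24, so which of them was lowest is not settled. The regions were also split in chromosomal order, after the values were seen. The first 7 lay between -0.55 and 0.11, and the next 5, from chr19:39723138 to chr19:40067386, between -1.24 and -0.79. With 1 probe at its bound the last of these 5 stood at -0.69. In every region of both stretches most probes had dim input, and such ratios have no bound.

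Cyp4a levels ran from -1.56 at chr4:115235201-115236644 to 0.028 at chr4:115124161-115125652. The lower region read -1.43, -1.76 and -1.34 on the chromium-restricted and -1.79, -1.23 and -1.82 on the control arrays, and with 2 probes at their bounds it stood at -1.34. The higher one read 0.054, -0.21 and 0.087 on the chromium-restricted and -0.084, 0.25 and 0.072 on the control arrays. The groups overlapped in both. Which region was highest is not settled, since chr4:115082932 and chr4:114970912 each held a probe with immunoprecipitated signal at background and with it at its bound stood at 0.20 and 0.12. None of the 11 Cyp4a regions reached the upper quartile of the array.

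The 4 Cyp2d regions lay close together and close to the array's median. They ran from -0.36 at chr15:82237128-82238680 to -0.020 at chr15:82210204-82211922, and 30 of their 34 probes were bright in both channels on all arrays. The highest read 0.036, 0.033 and -0.21 on the chromium-restricted and 0.13, -0.11 and -0.00063 on the control arrays, and the groups overlapped. The lowest read -0.30, -0.31 and -0.41 on the chromium-restricted and -0.53, -0.20 and -0.43 on the control arrays. The median range over arrays was 0.28 for these regions, against 0.66 at Cyp3a, 0.53 at Cyp2c, 0.51 at Cyp2a/Cyp2b, 0.36 at Cyp4a and 0.30 over all regions.

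The Cyp2a/Cyp2b locus had the highest region of the 5 loci and also one of the lowest. The short region chr7:27542003-27542457, of 3 probes all bright in both channels, had a level of 0.80 and stood at the 98.5th percentile of all regions. It read 0.71, 0.71 and 0.93 on the chromium-restricted and 0.82, 0.79 and 0.83 on the control arrays. The region chr7:27050690-27052191 had a level of -1.31, reading -1.38, -1.67 and -1.12 on the chromium-restricted and -1.51, -1.16 and -1.05 on the control arrays, with 2 of 7 probes bright in both channels. The groups overlapped in both regions.

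The main comparison of the study was between the dams' diets, and at the P450 loci no difference passed the test. In limma's fit over all 21987 regions, with Benjamini-Hochberg adjustment, 0 of the 50 regions had an adjusted p under 0.05, against 0 and 0% of all regions. Without adjustment 1 of 50 had p under 0.05, against 197 of all regions, or 0.896% (0.487% lower with chromium restriction and 0.409% higher). In 0 of 50 regions did the 3 arrays of one group all lie above the 3 of the other, against 4.44% of all regions. That count was 5 with loess, 3 in the authors' table, 2 with quantile normalization and 1 with medians over probes. The share over all regions was not counted under these settings, so whether these counts exceed it was not tested. Differences, as chromium-restricted minus control, ran from -0.30 to 0.14 with a median of -0.042, beside 0.0040 over all regions. Of the 50 regions 32 were lower in the chromium-restricted group, against 47.5% of all regions: 10 of 15 at Cyp2c, 4 of 6 at Cyp3a, 7 of 11 at Cyp4a, 2 of 4 at Cyp2d and 9 of 14 at Cyp2a/Cyp2b. The median 95% confidence interval of a difference reached 0.32 to each side, wider than the 0.22 over all regions, so a difference of the median size was not detectable with 3 arrays per group. No region in the loci had an unadjusted p under 0.05 with normexp background correction, bright probes only, or the replicate number as a block. Over all regions the shares were 0.168%, 0.409% and 0.509% in that order. Bright probes only left 28 of the 50 regions, and the 1 with p under 0.05 was not among them.

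**Figure D4:**
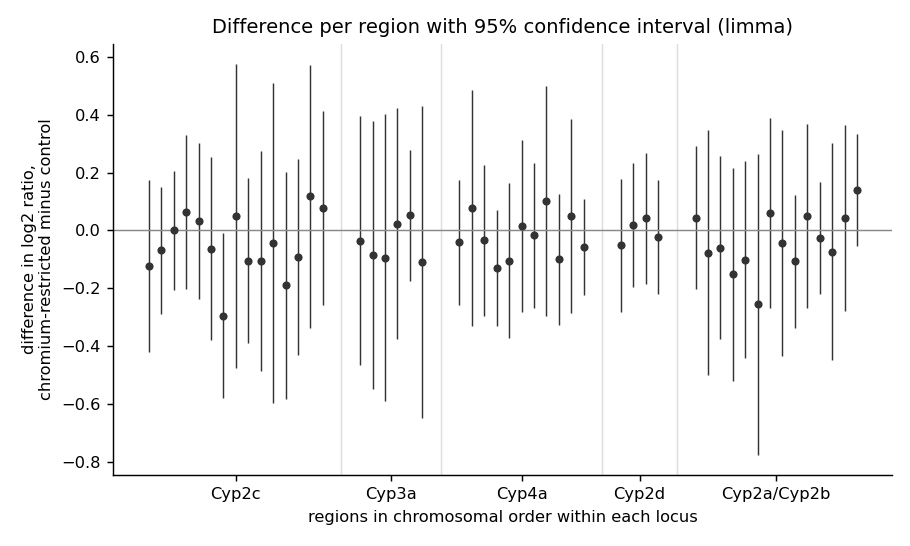
Difference in log2 ratio (y axis, chromium-restricted minus control) for the 50 regions in chromosomal order within each locus (x axis); points are estimates and bars the 95% confidence intervals of limma's fit. The differences lie between -0.30 and 0.14, and 1 interval, that of a Cyp2c region at -0.30, lies wholly on one side of 0.

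Locus by locus the group means were close compared with their spread. The Cyp3a mean was -1.17 ± 0.28 (SD, n = 3) in the chromium-restricted and -1.13 ± 0.32 (SD, n = 3) in the control group. For Cyp2c the means were -0.57 ± 0.097 and -0.52 ± 0.20, for Cyp2a/Cyp2b -0.49 ± 0.16 and -0.45 ± 0.20, for Cyp4a -0.44 ± 0.11 and -0.42 ± 0.13, and for Cyp2d -0.15 ± 0.026 and -0.14 ± 0.067, in the same order and with the same n. The differences were -0.050 for Cyp2c, -0.042 for Cyp3a, -0.040 for Cyp2a/Cyp2b, -0.022 for Cyp4a and -0.0036 for Cyp2d, each smaller than the SD of either group. When single arrays were left out the difference took both signs at each of the 5 loci, for Cyp3a from -0.21 without control replicate 1 to 0.11 without control replicate 2.

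Array brightness moved with these locus means. The 2 arrays with the brightest input, control 1 at 98.4 and chromium-restricted 2 at 83.9 scanner units, had the lowest means at Cyp3a, Cyp2c, Cyp4a and Cyp2a/Cyp2b. The 2 with the dimmest input, control 2 at 38.1 and chromium-restricted 3 at 46.1, had the highest Cyp3a means. Relative to the array median, the input of Cyp3a probes was 0.46, 0.54 and 0.037 on the chromium-restricted and 0.66, 0.0056 and 0.30 on the control arrays, while their immunoprecipitated signal stayed between -1.06 and -0.92. With the log2 input median of the array as a covariate the differences were -0.062 for Cyp2c, -0.065 for Cyp3a, -0.054 for Cyp2a/Cyp2b, -0.031 for Cyp4a and -0.0068 for Cyp2d. The part of array brightness in the spread of the loci was not tested.

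**Figure D5:**
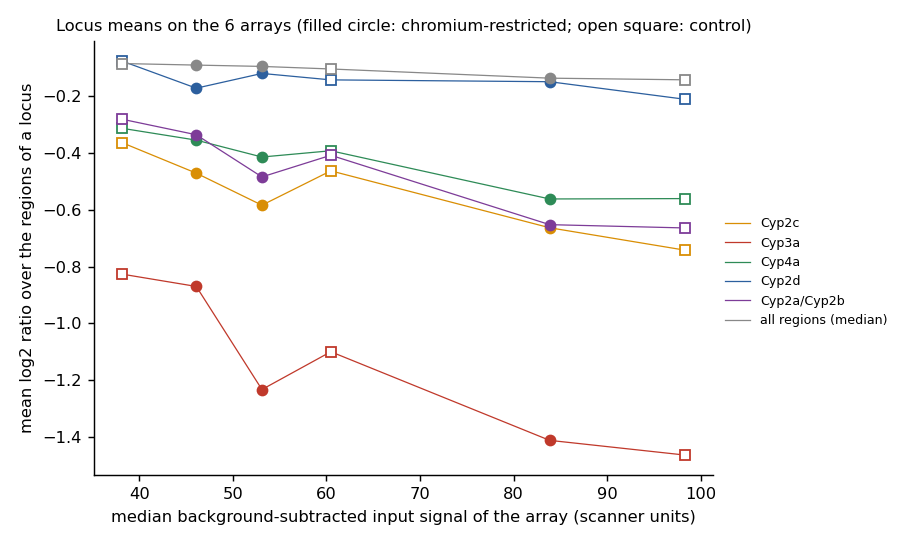
Mean level of each locus on the 6 arrays (y axis, log2 ratio) against the array's median input signal after background subtraction (x axis, scanner units); filled circles are chromium-restricted and open squares control arrays, and lines join the arrays of a locus. Cyp3a falls from -0.83 on the dimmest array to -1.46 on the brightest, while the median of all regions, in grey, moves from -0.084 to -0.14.

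The 1 region with an unadjusted p under 0.05 was chr19:39584012-39585716 at Cyp2c. It read -0.43, -0.73 and -0.46 on the chromium-restricted and -0.47, -0.14 and -0.11 on the control arrays. The difference was -0.30 (95% confidence interval -0.58 to -0.0097, limma adjusted p = 1.0), control sample 1 lay among the chromium-restricted ones, and 1 of its 8 probes was bright in both channels on all arrays. It was -0.060 with normexp and -0.090 in the authors' table. The largest differences at the other loci were -0.26 at chr7:27178943-27179439 (3 probes), -0.13 at chr4:115082932-115084643, -0.11 at chr5:146820694-146822326 and -0.052 at chr15:82210204-82211922. Their 95% confidence intervals all held 0, from -0.78 to 0.27, -0.33 to 0.071, -0.65 to 0.43 and -0.28 to 0.18 in that order, and their groups overlapped. The first was -0.51 without chromium-restricted replicate 3, -0.15 without chromium-restricted replicate 1, -0.11 without chromium-restricted replicate 2, -0.42 without control replicate 1 and -0.12 without control replicate 2. The chr4 difference was -0.080 without control replicate 2.

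No single probe passed the test either. In limma's fit over 174278 probes 0 of 349 had an adjusted p under 0.05, against 0 and 0% of all probes, and 5 (1.43%) had an unadjusted p under 0.05, against 1.3% of all. Of these 5, 3 were higher and 2 lower in the chromium-restricted group, 3 lay at Cyp2a/Cyp2b, 1 at Cyp2c and 1 at Cyp4a, and 0 were bright in both channels on all arrays. The groups did not overlap at 10 of 349 probes, against 4.27% of all, and 5 of the 10 were bright in both channels. The 2 of these at Cyp3a were neighbours in the one Cyp3a region above the array's upper quartile. The first, chr5:146691874-146691918, read 0.57, 0.77 and 0.55 on the chromium-restricted and 0.44, 0.050 and 0.25 on the control arrays, a difference of 0.39 (95% confidence interval -0.00021 to 0.77, limma adjusted p = 1.0). The second started at 146692233 and read 1.61, 1.60 and 1.58 against 1.40, 1.45 and 1.46, a difference of 0.16 (95% confidence interval -0.15 to 0.47, limma adjusted p = 1.0).

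The probes with the smallest p at the other loci were mostly dim. Those at Cyp2c (chr19:39361492-39361551, difference 0.62, 95% confidence interval 0.092 to 1.16), Cyp2a/Cyp2b (chr7:27091651-27091697, difference -0.55, interval -1.04 to -0.058) and Cyp4a (chr4:115169140-115169199, difference -0.75, interval -1.49 to -0.0025) had no immunoprecipitated signal well above background on any array. Input was well above background on 0 of 6 arrays for the Cyp2c and Cyp4a probes, whose differences thus compare signals at background, and on 3 of 6 for the Cyp2a/Cyp2b probe. The one at Cyp2d (chr15:82211422-82211473) differed by -0.22 (interval -0.73 to 0.30) and was bright in both channels on 2 of 6 arrays.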

How the data were processed

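Methylated DNA and input DNA of 6 mouse liver samples were hybridised to 2-colour Agilent arrays, 3 per diet group. The deposited processed signals are intensity values read with Agilent Feature Extraction 11.0.1.1, background-subtracted and scaled by 1 linear factor per channel with no lowess step, per the file headers. The authors' deposited table holds log ratios normalized before deposit and read here as log2, though no label or header states the method, the centring or the log base. Its columns correlated at 0.751 to 0.854 over probes with the scanner log2 ratios of the same arrays, so its direction is red over green. Its slope on them was 0.526 to 0.587, and 0.946 to 1.04 after normexp. Its column medians were 0.040, 0.038 and 0.035 for chromium-restricted and 0.038, 0.038 and 0.031 for control arrays 1, 2 and 3. It served as an alternative only. Probe positions are on mm9, per the file headers.

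The log2 ratio of processed red over green was centred on each array's median. The 5827 control spots were left out, and so were 360 of 174638 probes with an outlier flag on any array, none of them a member. A region's value is the mean over its probes. Differences were tested with limma 3.58.1 (R 4.3.3, lmFit, eBayes, group only) over all 21987 regions and 174278 probes, with Benjamini-Hochberg adjustment. The fit had first been run on simulated data with the same noise in every region. That run checked the code and does not give the power on these data. Loci were compared without a test, array by array. Figures used Python 3.11.15 and matplotlib 3.10.9. Members, lists and tests were chosen with earlier results of these data known.

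Regions were named by a rule: the highest, the lowest and the most different of each locus, plus those past the adjusted threshold or, failing that, those with groups that did not overlap. The probe with the smallest p of each locus was named as well. Other regions and probes that are named were chosen after their values were seen. Alternatives were normexp background correction (offset 50, on the median signal since the scanner output used here has no mean signal), quantile and loess normalization, filters on dim probes, flagged probes kept, medians over probes, another region gap (500 bp) or size, the replicate number as a block, array input as a covariate, an unmoderated statistic, and each array left out. Regulator and tissue marker genes were not analysed here because the files pair no probe with a gene.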

Additional observations from a re-analysis of the deposited data

How the results depend on the processing

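No region or probe of the P450 loci passed the adjusted threshold of limma under any alternative run. The number of regions with an unadjusted p under 0.05 was 1 as reported. It was 0 with normexp, with probes bright in both channels, with probes of bright input, with the replicate block and with the unmoderated statistic. The share over all regions was 0.896% as reported, and 0.168%, 0.409%, 0.462%, 0.509% and 1.98% under these settings in that order. The filters on brightness kept 28 and 32 of the 50 regions, and the 1 reported was not among them. With single arrays left out the number lay between 0 and 2, and the share over all regions between 0.541% and 2.54%. The number was 0 without chromium-restricted replicate 2 or control replicate 3, and 2 without chromium-restricted replicate 1 or 3. The number of probes was 5 as reported, 0 with normexp and 11 with loess. It was 1 with probes bright in both channels and 2 with probes of bright input. It was 3 with the replicate block and 22 with array input as a covariate. Shares over all probes were not counted under these alternatives, so these numbers are not read as a result about the P450 loci. With array input as a covariate the share over all regions rose too, to 3.86%. With single arrays left out the number of probes lay between 0 (without control replicate 3) and 11 (without chromium-restricted replicate 3 or control replicate 1). It was 3 without chromium-restricted replicate 1 or control replicate 2 and 9 without chromium-restricted replicate 2.

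Locus levels moved with several processing choices. With normexp they were -0.32 for Cyp2c, -0.46 for Cyp3a, -0.082 for Cyp4a, 0.15 for Cyp2d and -0.11 for Cyp2a/Cyp2b. In the authors' table Cyp2c was at -0.88, Cyp3a at -0.74 and Cyp2d at 0.18. The median of all regions was 0.037 with normexp and -0.024 in the authors' table, so Cyp2d lay above it in both. With probes bright in both channels, a filter that also selects on the immunoprecipitated signal, they were 0.012, -0.37, 0.55, 0.028 and 0.31 in the order above. With probes of bright input Cyp2c was at 0.012, Cyp4a at -0.18, Cyp2d at -0.041 and Cyp2a/Cyp2b at 0.017. With immunoprecipitated signals at background also set to their bound, they were at most 0.012, -0.87, -0.036, -0.039 and 0.12 in the first order. With medians over probes Cyp4a was at -0.29, Cyp2d at 0.011 and Cyp2a/Cyp2b at -0.23. With single arrays left out the levels ranged from -0.58 to -0.51 for Cyp2c, -1.22 to -1.09 for Cyp3a, -0.46 to -0.41 for Cyp4a, -0.16 to -0.13 for Cyp2d and -0.51 to -0.43 for Cyp2a/Cyp2b.

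The locus differences ranged with single arrays left out from -0.16 to 0.030 for Cyp2c, -0.21 to 0.11 for Cyp3a, -0.091 to 0.038 for Cyp4a, -0.037 to 0.030 for Cyp2d and -0.15 to 0.045 for Cyp2a/Cyp2b. That of Cyp2d was 0.050 with medians over probes. The difference at chr5:146820694 changed sign to 0.0012 without chromium-restricted replicate 2 and 0.13 without control replicate 2. It was -0.35 without control replicate 1. The difference at chr15:82210204 changed sign to 0.0087 with medians, 0.028 without chromium-restricted replicate 3 and 0.012 without control replicate 1. The causes of these moves were not tested. Samples of the same replicate number were scanned on the same day. Their deviations from the group means correlated at 0.15, -0.59 and 0.20, and the numbers were not taken as pairs. With 3 samples per group these values cannot show whether a scan day effect was present. The replicate block changed no adjusted call. Signal over background limits the Cyp2c locus most, where 3 of 15 regions kept enough probes of bright input.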
